A study of Mus musculus with 2 samples.

Results

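The cells described here are cells sorted from the lung as γδ T cells that hold UMIs of a dv6 variable gene, of no other δ variable gene counted, and of several effector markers. They came from the library labelled KO, which held sorted Vγ1+ T cells of uninfected mice of strain B6.Cg-Tcrgtm1lku(B6.Vg4-/-Vg6-/-), aged 5 to 7 weeks, a strain named for the loss of the Vγ4 and Vγ6 chains in the germline. A cell was a member if it had at least 1 unique molecular identifier (UMI, 1 counted transcript) of a Trav15 gene with dv6 in its symbol, 0 UMIs of Trdv1, Trdv2-2, Trdv4 and Trdv5, and a UMI in at least 3 of 8 marker genes. The markers were Tmem176a, Tmem176b, Cxcr6, Il18r1, Aqp3, Ccr6, Icos and Serpinb1a. This rule took 310 cells, called dv6 effector-marker cells below, of 1014 with dv6 as their single δ gene group, of 6634 KO-labelled cells that passed the cell filter, and of 9139 in both libraries. The comparison classes from the same library were 704 dv6 cells with fewer than 3 markers and 559 cells with another δ gene, no dv6 UMI and 3 or more markers (non-dv6 effector-marker cells). The other library held Vγ1- γδ T cells from C57BL/6NCrl mice of the same age and treatment (WT), and 1275 of its 2505 cells had 3 or more markers.

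The question behind the sort is what Vγ1+ cells of the lung express in mice of this strain. Each group was 1 library, and the number of mice pooled into it is not stated, so no test was possible and no p-value is given. Intervals are 95% and cover counting error of these libraries only. Levels are in CPM, the UMIs of a gene summed over the cells of a class and scaled to a common total. The dv6 effector-marker cells held 1472765 UMIs with a median of 4310.5 per cell, against 3541.5 in dv6 cells below 3 markers and 4356 in non-dv6 effector-marker cells. A cell with more UMIs has more chances to show a marker, so shares of cells were also read with 2000 UMIs drawn from each cell (thinned cells). Shallower cells were left out, 5 of 310, 71 of 704 and 14 of 559 in these classes. The libraries shared 23 barcodes, 1 of them in a dv6 effector-marker cell.

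γδ T cells with the Vγ1 chain include a known innate-like population that pairs it with a Vδ6 chain. This population makes the transcription factor PLZF (gene Zbtb16), which also directs natural killer T (NKT) cells, and it is known for interleukin 4 (IL-4) and interferon-γ rather than for interleukin 17 (IL-17). In the lung, IL-17 is mostly known from γδ T cells with Vγ4 or Vγ6 chains. In mice the dv6 segments lie among the Trav15 genes, so a dv6 segment can be joined to a δ or an α chain, and a UMI does not tell which.

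The genes Trav15-1-dv6-1, Trav15d-1-dv6d-1 and Trav15-2-dv6-2 carried nearly all dv6 UMIs, and their variable exons are shown because the cells differed in which of them they read. The exons lie on the plus strand of GRCm38 chromosome 14, as exon 2 of each gene in the GENCODE annotation of that build. Trav15-1-dv6-1 spans chr14:53559945-53560247, Trav15d-1-dv6d-1 chr14:52863634-52863936 and Trav15-2-dv6-2 chr14:53649695-53649994. The first 300 bases of each exon are printed, the whole exon in the case of Trav15-2-dv6-2. Capitals mark bases that differ from Trav15-1-dv6-1 in a global alignment.
Trav15-1-dv6-1: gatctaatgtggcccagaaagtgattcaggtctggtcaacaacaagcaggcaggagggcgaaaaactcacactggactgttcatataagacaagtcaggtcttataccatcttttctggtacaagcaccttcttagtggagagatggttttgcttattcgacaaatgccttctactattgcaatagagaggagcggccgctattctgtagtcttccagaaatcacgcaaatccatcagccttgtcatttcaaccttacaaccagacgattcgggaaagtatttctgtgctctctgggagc
Trav15d-1-dv6d-1: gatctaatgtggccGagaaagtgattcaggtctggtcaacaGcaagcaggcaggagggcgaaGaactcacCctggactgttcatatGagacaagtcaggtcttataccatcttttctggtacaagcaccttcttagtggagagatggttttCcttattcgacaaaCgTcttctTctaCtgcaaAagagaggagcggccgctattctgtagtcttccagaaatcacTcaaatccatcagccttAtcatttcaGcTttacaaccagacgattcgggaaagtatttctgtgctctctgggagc
Trav15-2-dv6-2: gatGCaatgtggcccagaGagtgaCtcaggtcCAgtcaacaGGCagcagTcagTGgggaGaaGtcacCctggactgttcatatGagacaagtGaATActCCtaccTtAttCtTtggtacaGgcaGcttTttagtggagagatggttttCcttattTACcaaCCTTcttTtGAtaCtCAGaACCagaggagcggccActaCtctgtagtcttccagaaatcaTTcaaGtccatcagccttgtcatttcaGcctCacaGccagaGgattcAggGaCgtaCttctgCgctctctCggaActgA

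Trav15-1-dv6-1 and Trav15d-1-dv6d-1 were identical at 288 of 303 aligned positions (95.05%), with a longest shared run of 64 bases. Trav15-2-dv6-2 was 77.9% identical to Trav15-1-dv6-1 and 80.5% identical to Trav15d-1-dv6d-1. The remaining dv6 gene, Trav15d-2-dv6d-2 (chr14:52957098-52957400), was 97.0% identical to Trav15-2-dv6-2 and had 2 UMIs in the dv6 effector-marker cells. Reads from the long shared runs of near-identical genes may have been left uncounted or given to the wrong gene, so the counts per gene are uncertain between Trav15-1-dv6-1 and Trav15d-1-dv6d-1 and between Trav15-2-dv6-2 and Trav15d-2-dv6d-2.

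The dv6 effector-marker cells read Trav15d-1-dv6d-1 more often, and Trav15-2-dv6-2 less often, than dv6 cells below 3 markers. The rule used the sum of the dv6 genes and not which one was read, so this comparison does not rest on the choice of cells. Among the 288 dv6 effector-marker cells with UMIs of 1 dv6 gene, Trav15d-1-dv6d-1 was read in 101 cells (35.1%, 29.6 to 40.9), Trav15-1-dv6-1 in 94 (32.6%, 27.3 to 38.4) and Trav15-2-dv6-2 in 92 (31.9%, 26.6 to 37.7). Among the 651 such cells below 3 markers, Trav15d-1-dv6d-1 was read in 100 (15.4%, 12.7 to 18.4), Trav15-1-dv6-1 in 190 (29.2%, 25.7 to 32.8) and Trav15-2-dv6-2 in 358 (55.0%, 51.1 to 58.9). The intervals of Trav15d-1-dv6d-1 and of Trav15-2-dv6-2 did not overlap between the classes, while those of Trav15-1-dv6-1 did.

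Read the other way, 50.2% of the 201 Trav15d-1-dv6d-1 cells had 3 or more markers (43.1 to 57.4). The share was 33.1% of 284 Trav15-1-dv6-1 cells (27.7 to 38.9) and 20.4% of 450 Trav15-2-dv6-2 cells (16.8 to 24.5). The order was kept in cells with 2500 to 5000 UMIs, where the intervals were 41.2 to 58.8%, 27.7 to 42.7% and 15.03 to 25.06%, the last below the first. It was also kept in cells with 1 dv6 UMI, with intervals of 39.0 to 54.6%, 20.1 to 39.8% and 18.1 to 33.0%, although the last pair overlapped widely there. The genes differed in how many UMIs a cell gave. Within dv6 effector-marker cells Trav15d-1-dv6d-1 had 1.29 UMIs per cell, against 2.97 for Trav15-1-dv6-1 and 4.09 for Trav15-2-dv6-2, and 77.2% of its cells had 1 UMI. Whether this low yield bears on the difference was not tested. With at least 2 dv6 UMIs required, the share of Trav15d-1-dv6d-1 was 15.5% of the 148 effector-marker cells with UMIs of 1 dv6 gene and 2.81% of the 391 below 3 markers. Counted in UMIs in place of cells, Trav15d-1-dv6d-1 held 15.9% of the dv6 UMIs of effector-marker cells and 5.56% of those below 3 markers.

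**Figure D1:**
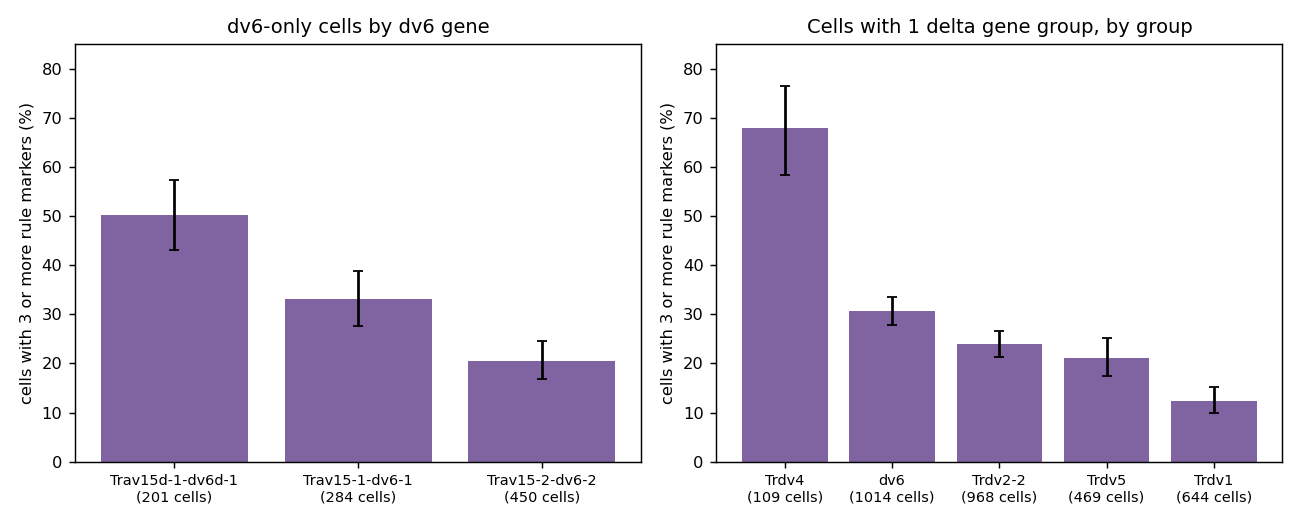
Bars give the percent of KO-labelled cells with 3 or more rule markers, at left by dv6 gene among dv6 cells with UMIs of 1 dv6 gene and at right by δ gene group among cells with UMIs of 1 group, with exact 95% binomial intervals (counting error only). At left the shares are 50.2%, 33.1% and 20.4%, and at right the dv6 group, at 30.6%, lies below Trdv4 and above Trdv2-2, Trdv5 and Trdv1.

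Across the δ genes of the KO-labelled library, the dv6 group was second in its share of cells with 3 or more markers. That share was 30.6% of 1014 dv6 cells (27.7 to 33.5), below 67.9% of 109 Trdv4 cells (58.3 to 76.5) and above 23.9% of 968 Trdv2-2 cells (21.2 to 26.7). It was 21.1% of 469 Trdv5 cells and 12.4% of 644 Trdv1 cells. With the markers read from thinned cells, the shares were 25.9% for dv6 (23.1 to 28.8), 59.0% for Trdv4, 20.8% for Trdv2-2 (18.1 to 23.7), 17.7% for Trdv5 and 9.24% for Trdv1. The neighbours dv6 and Trdv2-2 did not overlap before thinning, and their intervals overlapped after it.

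The γ chain genes served as a check of the sort and the strain. Tcrg-V1 had a UMI in 65.2% of the 310 cells (59.6 to 70.5), against 43.8% of dv6 cells below 3 markers and 65.3% of non-dv6 effector-marker cells. Tcrg-V6 had no UMI in 310 cells, and such a count of 0 still allows 0.968%. Tcrg-V4, named in the strain as deleted, had 81 UMIs in 66 cells (21.3%, 16.9 to 26.3), so the library is called KO-labelled throughout. It was also read in 14.9% of dv6 cells below 3 markers and 23.8% of non-dv6 effector-marker cells. Among non-dv6 cells with fewer than 3 markers the share was 11.5%. In the WT effector-marker cells Tcrg-V6 stood at 577 CPM and Tcrg-V4 at 76.9 CPM. In the dv6 effector-marker cells they stood at 0 and 55.0 CPM, and the levels are given side by side without comparison. What the Tcrg-V4 UMIs come from was not tested.

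Genes of αβ T cells were read as well. Trbc2, a β chain constant gene, had a UMI in 64.5% of dv6 effector-marker cells and Trbc1 in 22.3%, against 73.4% and 38.9% in dv6 cells below 3 markers. The shares were 67.8% and 33.5% in non-dv6 effector-marker cells and 74.7% and 39.7% in non-dv6 cells with fewer than 3 markers. Both genes were thus read in all classes of this library. Trac, the α chain constant gene, was read in 12.3%, Cd4 in 1.61% and Cd8b1 in 2.26% of the effector-marker cells. The constant gene of the δ chain, Trdc, was read in 47.7%, and Cd3e, part of the receptor complex, in 84.6% of thinned cells. Without the cells that had a Trbc1 or Trbc2 UMI, 98 dv6 effector-marker cells were left, and Trav15d-1-dv6d-1 was then read in 42.9% of the 91 with UMIs of 1 dv6 gene, against 16.7% of 138 below 3 markers.

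Of the label markers outside the rule, Zbtb16 was read in a larger share of these cells than of the background cells, also after thinning. Cd40lg was so before thinning, while the thinned share of Ccr8 lay within the interval of the background. Zbtb16 had a UMI in 231 of the 310 cells (74.5%), or 48.9% after thinning (43.1 to 54.6). Cd40lg, the ligand of CD40, had one in 26.1% and Ccr8, a chemokine receptor of skin-homing and type 2 T cells, in 17.4%, or 11.8% after thinning. The background was read in 27 cells of the same library with B cell or myeloid transcripts and a median of 2485 UMIs. One of them (3.70%, 0.0937 to 19.0) had a Zbtb16 UMI and 0 of 27 had a UMI of Cd40lg, Ccr8, Cxcr6 or a dv6 gene. The exact interval of such a count ends at 12.8%, above the thinned share of Ccr8.

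Zbtb16 stood at 433 CPM (400 to 468) in dv6 effector-marker cells, 146 CPM (132 to 161) in dv6 cells below 3 markers and 387 CPM in non-dv6 effector-marker cells. Cd40lg stood at 97.1 CPM (81.8 to 114), 12.6 CPM (8.77 to 17.5) and 81.3 CPM in these classes. Ccr8 stood at 95.1 CPM (80.0 to 112), 17.6 CPM (13.05 to 23.3) and 73.6 CPM. All of these genes were thus higher in dv6 effector-marker cells than in the dv6 cells below 3 markers, by log2 ratios of 1.57 (1.39 to 1.75), 2.95 (2.40 to 3.52) and 2.43 (1.95 to 2.93). The ratio of Ccr8 moved most with the settings, from 0.98 without cells holding a Trbc1 or Trbc2 UMI to 4.58 in cells with 2500 to 5000 UMIs. Since the markers of the rule separate these classes, such ratios describe the chosen cells and are no test of them. Against the non-dv6 effector-marker cells the log2 ratios were 0.16 (0.02 to 0.31) for Zbtb16, 0.26 (-0.06 to 0.57) for Cd40lg and 0.37 (0.05 to 0.69) for Ccr8. Under the other settings tried these ratios ran from -0.28 to 0.31, from -0.18 to 0.66 and from -0.23 to 0.68, so their direction was not fixed. The label genes therefore did not set the dv6 cells apart by 2-fold from other cells with the same markers.

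Of the 1014 dv6 cells, 324 had none of the 8 markers, 259 had 1, 121 had 2, 61 had 3, 61 had 4, 90 had 5, 65 had 6, 29 had 7 and 4 had 8. Fewer cells thus had 3 or 4 markers than had 2 or 5, and the rule cut at 3. Just outside the cut, at 2 markers, Zbtb16 stood at 300 CPM and Lef1, a transcription factor of naive T cells, at 636 CPM. Just inside it, at 3 markers, Zbtb16 stood at 415 CPM and Lef1 at 450 CPM. Both genes were thus read on either side of the cut.

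The genes did not follow the number of markers in the same way. Zbtb16 was 82.0 CPM in cells with 0 markers, 131 at 1 marker, 300 at 2, 415 at 3 and between 396 and 453 at 4 or more. Most of the range of Zbtb16 thus lay below the cut. Il23r, the receptor that sustains IL-17 cells, was 3.53 CPM at 0 markers, 41.9 at 3, 160 at 4, 209 at 5, 339 at 6 and 321 at 7 or 8. S100a4 went from 204 CPM at 2 markers and 394 at 3 to 1135 at 4. Gata3, a regulator of type 2 cells, was at 37.0 CPM at 0 markers, 94.8 CPM (71.2 to 124) at 2 and 122 CPM (85.1 to 170) at 3. Above that it was at 70.2 CPM at 4, 60.1 CPM at 5, 33.6 CPM at 6 and 58.9 CPM (29.4 to 105) at 7 or 8. Its values at 2 and 3 markers, on either side of the cut, had intervals that overlapped. Median UMIs per cell were 3234 at 0 markers, 4248 at 2, 4503 at 3, 3847 at 4, 4431 at 6 and 5575 at 7 or 8, and their part in these levels was not tested.

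**Figure D2:**
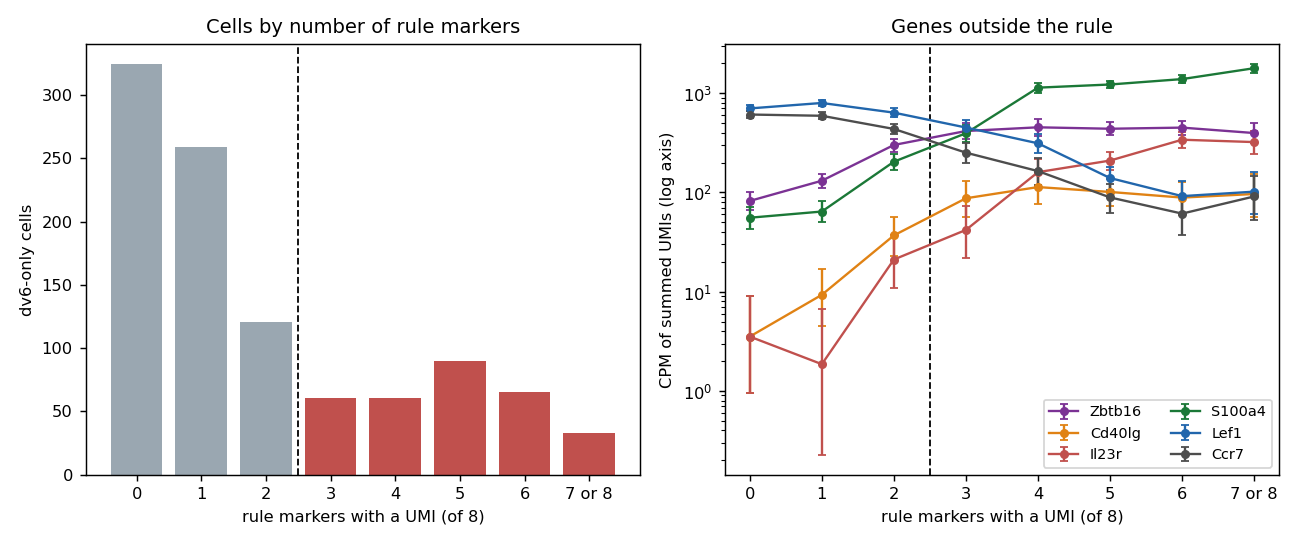
At left, bars count the dv6 cells by how many of the 8 rule markers had a UMI, with effector-marker cells in red. At right, points give the level of 6 genes outside the rule (CPM, log axis) with exact 95% Poisson intervals, and the dashed line in both plots is the cut at 3. Zbtb16 reaches 415 CPM at 3 markers and stays near it, while S100a4 and Il23r are higher at 4 or more markers than at 3, and Lef1 and Ccr7 are lower.

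Each rule marker was also read in cells chosen by the other 7 markers, so that no gene chose its own cells. Icos, a costimulatory receptor, had a UMI in 94.9% of cells chosen by the other markers and in 30.7% of the rest. Cxcr6, a chemokine receptor of tissue-resident T cells, was read in 86.8% and 18.3%. Tmem176b, a membrane protein gene found in IL-17 cells, was read in 72.9% and 7.48%. At the other end Ccr6, a receptor typical of IL-17 cells, was read in 6.45% of 310 cells and in 0 of 704 below 3 markers, which allows a share of up to 0.426%.

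Across all genes, those past 2-fold were counted in both comparisons. The rule parted the classes by its markers in the first and not in the second, so their counts are not ranked. Of 5703 genes with enough UMIs, 335 (5.87%) were more than 2-fold higher and 202 (3.54%) more than 2-fold lower than in dv6 cells below 3 markers. Without receptor genes and rule markers these were 326 (5.74%) and 200 (3.52%) of 5683. Of 5742 genes, 9 (0.157%) were higher and 11 (0.192%) lower by that measure than in non-dv6 effector-marker cells. The second pair of counts moved with the settings, from 3 to 222 higher and from 6 to 371 lower, with the highest of each where the filter on the share of cells was dropped, and 39 and 69 without cells holding a Trbc1 or Trbc2 UMI. The 5th to 95th percentile of log2 ratios ran from -0.89 to 1.15 in the first comparison and from -0.42 to 0.37 in the second. The first comparison was set up by the rule, and nothing about the cells is drawn from its counts. In the second, only the δ genes were used to part the classes.

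**Figure D3:**
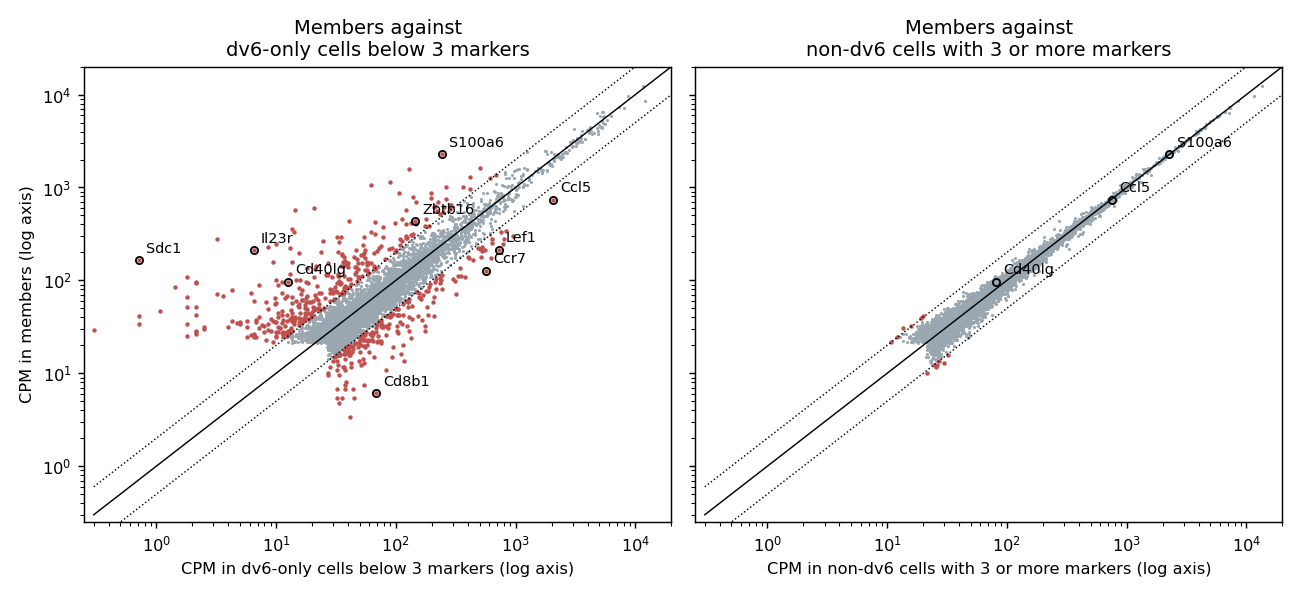
Each point is a gene, with its level in dv6 effector-marker cells (members) on the vertical axis and its level in dv6 cells below 3 markers (left) or non-dv6 effector-marker cells (right) on the horizontal axis, in CPM on log axes, with receptor genes left out and genes at 0 drawn at the edge. Dotted lines and red points mark 2-fold. Many points lie off the diagonal at left, and 99.7% of tested genes were within 2-fold at right.

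The lists below are counted as a description of the chosen cells. Each count is to be read beside the share over all tested genes in the same comparison, 5.87% higher and 3.54% lower. The lists hold genes that vary together with the rule markers, so counts above that share are no separate result. A gene entered the counts if 10% of the cells of either class had a UMI, so a gene read almost solely in the effector-marker cells had to differ. Among regulators of innate-like and effector cells, 6 of 12 tested genes were more than 2-fold higher than in dv6 cells below 3 markers, and 2 were lower (median log2 ratio 0.85, against -0.05 for all genes). Besides Zbtb16 they were Rora, a nuclear receptor of type 17 and innate lymphoid cells, at 878 against 197 CPM, and Maf, a factor needed by IL-17 γδ cells, at 142 against 21.6 CPM. Ikzf3 was 700 against 148 CPM, Bhlhe40 117 against 26.6 CPM and Id2, an inhibitor of E proteins, 518 against 234 CPM. The lower members were Ikzf2, at 212 against 557 CPM, and Ahr, at 31.2 against 77.0 CPM. Gata3 differed by a log2 ratio of 0.30 (-0.08 to 0.68).

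Regulators of naive and stem-like T cells lay on the other side, with 8 of 12 tested genes more than 2-fold lower and 1 higher (median -1.16). Lef1 was at 215 against 724 CPM, Klf2, which directs recirculation, at 249 against 781 CPM, and Myb at 32.6 against 175 CPM. Sox4 was lower by a log2 ratio of -2.49 (-3.08 to -1.94) and Id3 by -2.06 (-2.86 to -1.35). Tcf7 was at 244 against 470 CPM, within 2-fold. The higher member was Bcl11b, at 132 against 65.9 CPM. Lef1 still had a UMI in 27.5% of thinned dv6 effector-marker cells, against 70.1% below 3 markers.

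Of 8 tested genes of type 17 cells, 7 were more than 2-fold higher and none lower (median 3.48). Several of them entered through the effector-marker cells alone, and markers of the rule are themselves genes of IL-17 cells, so the count and median carry no weight beyond the values. Il23r was at 211 CPM (188 to 236) against 6.48, and Il1r1, a receptor that drives IL-17, at 68.6 against 3.60 CPM. Ltb4r1, a leukotriene receptor, was at 97.1 against 2.16 CPM, and Ramp1, a neuropeptide co-receptor, at 424 against 66.9 CPM. Blk, a kinase of IL-17 γδ cells, had 43 UMIs against 0 in dv6 cells below 3 markers, at least 27.04-fold higher with the empty class set to 3 UMIs. Cd163l1, a scavenger receptor of IL-17 γδ cells, differed by a log2 ratio of 0.82, short of 2-fold. After thinning, a UMI of Il23r, Il17a, Il17f, Il1r1 or Blk was found in 38.7% of dv6 effector-marker cells (33.2 to 44.4), in 0.474% of dv6 cells below 3 markers and in 38.7% of non-dv6 effector-marker cells (34.6 to 42.9).

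Type 1 genes were split. Cxcr3, a receptor of type 1 cells, was at 174 against 55.4 CPM and Tnf at 74.0 against 11.2 CPM. Ccl5 was lower, at 739 against 2053 CPM, as were Ly6c2, at 112 against 351 CPM, and Il12rb2, at 53.6 against 135 CPM. These were 2 higher and 3 lower of 6 tested, with Tbx21 within 2-fold, at 44.8 against 30.6 CPM. Ifng, which encodes interferon-γ, had 22 UMIs in the 310 cells, a level of 14.9 CPM against 19.8.

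Type 2 cytokine genes other than Areg were hardly read, and none of the 7 listed passed the filter on the share of cells and on UMIs. Il4 had 7 UMIs in dv6 effector-marker cells, or 4.75 CPM, against 2.52 CPM in dv6 cells below 3 markers and 1.47 CPM in non-dv6 effector-marker cells. Il13, Il5, Il9, Il10 and Il2 had 0 UMIs. Areg, which encodes a repair factor, had 93 UMIs, with a UMI in 3.28% of thinned cells, and was left out by the filter on the share of cells. The summed level of the list was 67.9 CPM in dv6 effector-marker cells and 18.4 CPM in dv6 cells below 3 markers. It was 76.9 CPM in non-dv6 effector-marker cells. The mice were uninfected.

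Receptors for cytokines, costimulators and homing receptors gave a mixed picture. Leaving out the rule markers, 6 of 16 cytokine receptors were higher and 1 lower. Over all tested genes without T cell receptor genes and rule markers, 5.74% were higher and 3.52% lower. Il2ra, the high-affinity chain for interleukin 2, was at 198 against 15.5 CPM, Il17re at 51.6 against 2.16 CPM and Il12rb1 at 31.2 against 3.96 CPM. Il7r, at 1451 against 821 CPM, was within 2-fold. Of 10 costimulators and TNF family genes, 3 were higher and none lower: Cd40lg, Tnfsf11, which encodes RANKL, at 259 against 33.8 CPM, and Tnfrsf25 at 132 against 21.2 CPM. Cd27, whose loss marks IL-17 γδ cells, was at 272 against 379 CPM. Of 9 homing receptors other than Cxcr6, 5 were higher and 2 lower. Ccr2, which guides cells to inflamed tissue, was at 221 against 12.96 CPM, Gpr183 at 191 against 35.3 CPM and Ccr4 at 116 against 33.1 CPM. Ccr7 and S1pr1, which guide cells through lymph nodes and back to blood, were lower, at 128 against 566 CPM and 176 against 409 CPM.

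In the genes of tissue retention, Cd44, an adhesion receptor of experienced T cells, was at 187 against 35.3 CPM, Rgs1 at 290 against 77.4 CPM and Itgb7 at 643 against 285 CPM. Itga4 was the 1 lower gene of 11, and Cd69 was at 87.6 against 119 CPM. Of 14 S100 and cytoskeletal genes, 9 were higher and none lower (median 1.48), beside 5.87% higher and 3.54% lower over all tested genes. S100a4 was at 1153 against 89.3 CPM, S100a6 at 2267 against 242 CPM and Capg at 267 against 24.8 CPM. Of 16 genes of T cell receptor (TCR) signalling, none was higher and 4 were lower: Prkch, Prkca, Themis and Ubash3a. Among inhibitory receptors, 1 of 6, Tigit, was lower, at 76.1 against 178 CPM, and none was higher. Pdcd1, which encodes PD-1, was at 435 against 673 CPM. In the SLAM family, which NKT cells need in development, Slamf1 was higher, at 53.6 against 15.1 CPM, and Slamf6 and the adaptor gene Sh2d1a were lower, at 43.5 against 94.6 and 59.1 against 126 CPM. Of 5 cytotoxic genes, Gzmb, at 91.7 against 34.2 CPM, and Serpinb9 were higher. Of the killer lectin-like receptors 2 of 14 were tested, and Klrk1 was higher and Klrd1 lower.

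**Figure D4:**
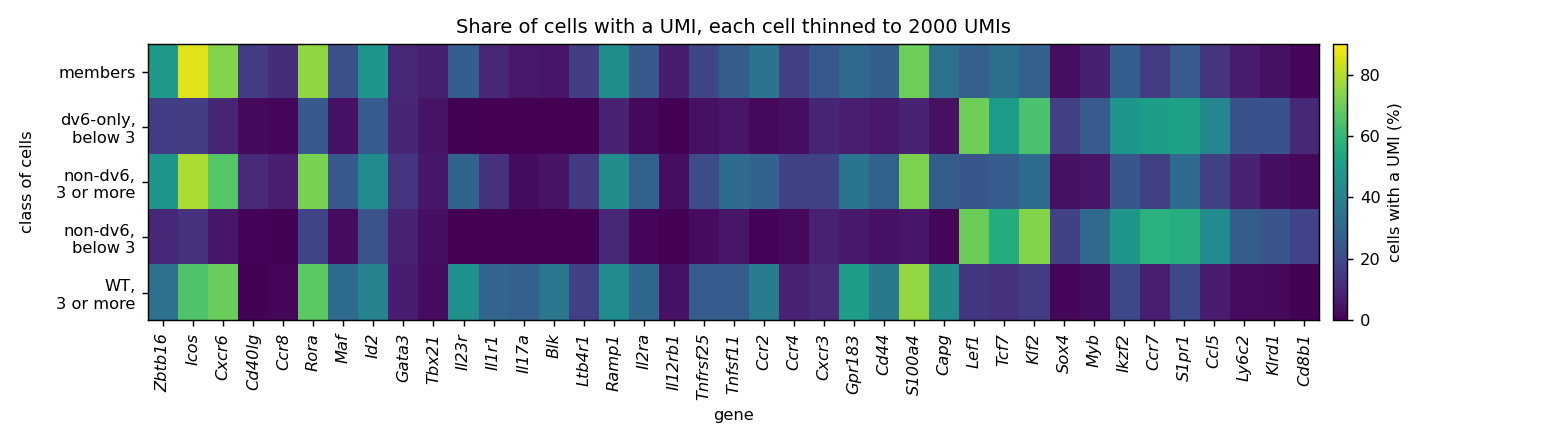
Colour gives the percent of cells with a UMI after thinning to 2000 UMIs, for 1 gene per column and 1 class of cells per row; members are the dv6 effector-marker cells. The rows of dv6 and non-dv6 effector-marker cells look alike, with Zbtb16 at 48.9% and 47.2%, and dv6 cells below 3 markers, where it is 16.6%, differ from both.

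By size alone, the highest ratios over dv6 cells below 3 markers were those of Sdc1, Pxdc1, Krt83, Palld, Ly6g5b, Edil3, Ltb4r1, Rbpms2, Mmp25 and Adam8. Sdc1, which encodes syndecan-1, led with 245 UMIs in 118 cells against 2 UMIs, a log2 ratio of 7.85 (5.98 to 10.91). The lowest were Dapl1, Cd8b1, Hdac9, Il6st, Cd24a, Ppic, Gramd4, Gria3, Ncf1 and Sox5. Dapl1 was at 3.39 against 41.7 CPM, a log2 ratio of -3.62 (-5.27 to -2.36), and Cd24a, a gene of immature T cells, at 10.9 against 83.5 CPM. Sdc1 was 166 CPM in dv6 and 133 CPM in non-dv6 effector-marker cells, so it did not part these by 2-fold.

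Set against the non-dv6 effector-marker cells, no gene of the lists above that passed the filter was past 2-fold in either direction. Il23r was at 211 against 213 CPM, S100a6 at 2267 against 2272 CPM, Rora at 878 against 787 CPM and Lef1 at 215 against 231 CPM. Without receptor genes and rule markers, 6 of 5719 genes were higher (0.105%) and 7 were lower (0.122%). The highest were Slf2, at 45 against 37 UMIs (log2 ratio 1.17, 0.51 to 1.83), Hccs (1.06) and Gnl3l (1.04), and the lowest Aacs (-1.21, -2.01 to -0.47), Kdm1a (-1.14) and Dcaf10 (-1.10). These genes had few UMIs in the dv6 effector-marker cells, from 15 of Poldip2 to 61 of Hccs, and the intervals nearest to 0 began at 0.25 for Sars2 and ended at -0.23 for Poldip2. The genes were picked as the largest ratios among 5719, and the intervals make no allowance for that choice. That they leave out 0 is therefore no evidence of a difference. The ratio of Cmc1, at 1.01, was -0.37 without cells holding a Trbc1 or Trbc2 UMI. Cxcr3 was at 174 CPM (153 to 196), against 99.3 CPM in Trdv2-2 cells with 3 or more markers (81.0 to 120), 136 CPM in Trdv1 cells, 155 CPM in Trdv4 cells and 128 CPM in Trdv5 cells. The intervals of the last 3 groups overlapped that of the dv6 cells. Ccr8 was at 95.1 CPM (80.0 to 112), against 48.2 CPM in Trdv2-2 cells (35.8 to 63.5), 40.7 CPM in Trdv1 cells, 94.8 CPM in Trdv4 cells and 132 CPM in Trdv5 cells. Ccr8 thus differed more among the other δ groups than between dv6 and non-dv6 cells.

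Il17a, which encodes IL-17A, was carried by few cells. In dv6 effector-marker cells it had 160 UMIs in 26 of 310 cells (8.39%), and 1 UMI in the 704 dv6 cells below 3 markers. One cell held 38 of the UMIs, and the 3 highest cells held 48.1%. The level of 109 CPM (92.5 to 127) compared with 42.7 CPM in non-dv6 effector-marker cells, a log2 ratio of 1.35 (0.99 to 1.71). Of thinned cells 6.23% (3.79 to 9.56) had a UMI against 3.12% (1.83 to 4.95), with intervals that overlapped. Without cells holding a UMI of the stress genes Atf3 or Hspa1a, the log2 ratio was -0.21, so the direction turned. Il17a did not pass the filter of a UMI in 10% of cells, and the difference is no more than that of a few cells of 1 library. By dv6 gene, Il17a was at 199 CPM (89 UMIs) in effector-marker cells that read Trav15d-1-dv6d-1, 107 CPM (48 UMIs) with Trav15-1-dv6-1 and 44.6 CPM (20 UMIs) with Trav15-2-dv6-2. With 48.1% of the UMIs in 3 cells, this order can turn on a few cells, and nothing is drawn from it.

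Type 17 and type 1 transcripts were found in partly different cells. Of the 310 cells, 57 had a UMI both of a type 17 gene (Il23r, Il17a, Il17f, Il1r1 or Blk) and of a type 1 gene (Cxcr3, Tbx21 or Ifng), 109 of a type 17 gene alone, 78 of a type 1 gene alone and 66 of neither. After thinning, a type 1 gene was read in 30.8% of dv6 effector-marker cells (25.7 to 36.3), 22.2% of non-dv6 effector-marker cells (18.8 to 25.9) and 15.2% of dv6 cells below 3 markers. Cd40lg or Ccr8 was read in 44.6% of the 166 cells with a type 17 gene (36.9 to 52.5) and in 27.8% of the others (20.6 to 35.8). After thinning these shares were 29.7% (21.6 to 38.8) and 20.3% (14.8 to 26.8), so the gap was smaller at equal depth and the intervals overlapped. In non-dv6 effector-marker cells the thinned shares were 17.1% and 16.8%. Zbtb16, read in 74.5% of the 310 cells, was read together with a type 17 gene in 139 cells and with a type 1 gene in 100 cells. It was read in 83.7% of cells with a type 17 gene and 63.9% of the others. After thinning these shares were 52.5% (43.1 to 61.8) and 46.5% (39.2 to 53.9), with intervals that overlapped.

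Clustering of the 310 cells, with receptor genes and rule markers left out, gave 3 clusters. Their defining genes are given as a description. Cluster 0 held 125 cells with a median of 4 rule markers, among which Lef1 was read in 68.8%, Klf2 in 62.4%, Cd27 in 72.0% and Cxcr3 in 48.8%, and Il23r in 16.8%. Cluster 2 held 134 cells with a median of 5 markers, among which Il23r was read in 67.2%, Ccr2 in 64.2% and Zbtb16 in 81.3%, and Lef1 in 12.7%. Cluster 1 held 51 cells, among which the stress genes Atf3 and Hspa1a were read in 76.5% and 68.6%. It had 73 of the 160 Il17a UMIs, against 86 in cluster 2 and 1 in cluster 0, at 312, 144 and 1.56 CPM. Cd40lg in cluster 1 was at 239 CPM, against 45.2 CPM in cluster 0 and 97.1 CPM in cluster 2. Atf3 had the same order, at 59.3 CPM in cluster 0, 958 CPM in cluster 1 and 378 CPM in cluster 2. Hspa1a was at 3099 CPM in cluster 1 and nearly alike in clusters 0 and 2, at 98.2 and 102 CPM. The part of stress genes in Cd40lg and Il17a was not tested. Zbtb16 was read in at least 68.0% of the cells of every cluster.

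The receptor genes, which the clustering did not use, were spread over the clusters. Trav15d-1-dv6d-1 had a UMI in 62 of 134 cells of cluster 2 (46.3%, 37.6 to 55.1), 18 of 51 cells of cluster 1 (35.3%, 22.4 to 49.9) and 33 of 125 cells of cluster 0 (26.4%, 18.9 to 35.0). The intervals of clusters 2 and 0 did not overlap. Trav15-2-dv6-2 had a UMI in 41.6% of cluster 0 and 31.3% of cluster 2, with intervals that overlapped. The clusters depended on the settings. Resolution 0.3 gave 2 clusters and resolution 1 gave 7. Leaving out stress and TCR-induced genes again gave 3, with 71 of the 134 cells of cluster 2 kept together. In that setting 121 of 125 cells of cluster 0 and 48 of 51 cells of cluster 1 were kept together.

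**Figure D5:**
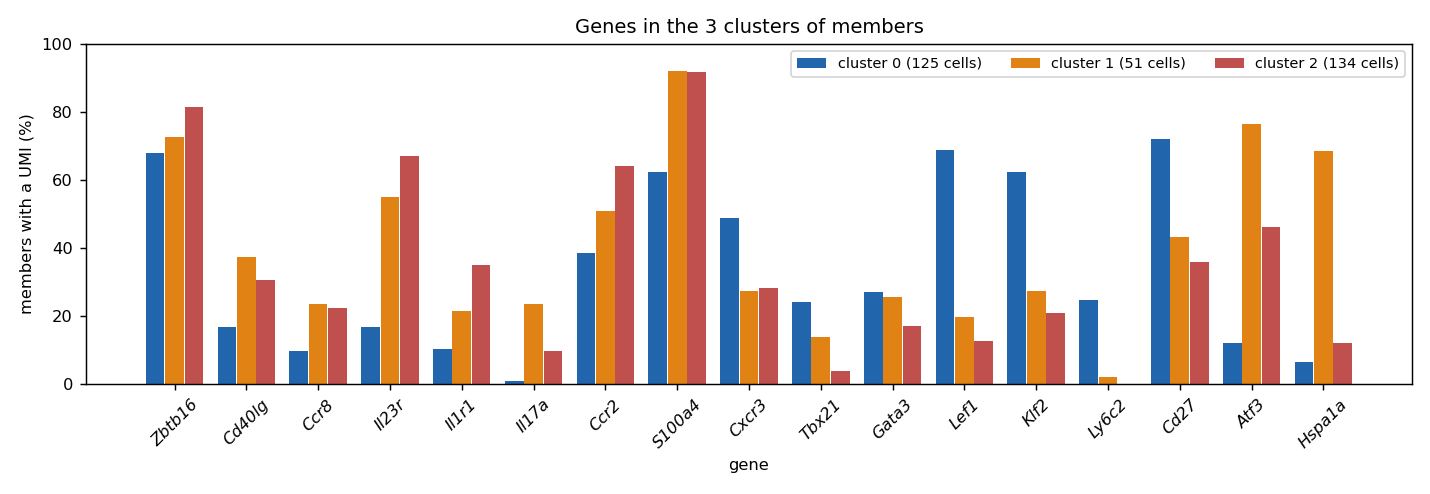
Bars give the percent of cells with a UMI of each gene, not thinned, in the 3 clusters of dv6 effector-marker cells. Lef1 was read in 68.8% of cluster 0, 19.6% of cluster 1 and 12.7% of cluster 2, and Il23r in 16.8%, 54.9% and 67.2%.

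Some stress and early response genes were also higher in dv6 effector-marker cells than in dv6 cells below 3 markers, with 5 of 14 stress genes past 2-fold and none lower. Over all tested genes, 5.87% were higher and 3.54% lower. Atf3 was at 331 against 14.03 CPM and Fos at 630 against 213 CPM. Of 5 tested genes induced by TCR signals, Nr4a1, Nr4a2 and Nr4a3 were higher. The summed level of the stress list was 11008 CPM in dv6 effector-marker cells, 7713 CPM in dv6 cells below 3 markers and 11645 CPM in non-dv6 effector-marker cells. In the 167 dv6 effector-marker cells without an Atf3 or Hspa1a UMI, Cd40lg was higher than in dv6 cells below 3 markers by a log2 ratio of 2.36, against 2.95 in all cells. Transcripts of other cell types were low, with a summed B cell list of 348 CPM in dv6 and 169 CPM in non-dv6 effector-marker cells, where Cd74 made up 216 CPM of the former and was read in 1.97% of thinned cells.

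Beside them, the WT effector-marker cells differed in genotype, sort and library at once, which cannot be told apart, so their levels are given without comparison. Zbtb16 was at 433 CPM in dv6 effector-marker cells and 245 CPM in WT cells, Cd40lg at 97.1 and 3.29 CPM and Ccr8 at 95.1 and 6.99 CPM. Il17a was at 109 and 388 CPM, Il23r at 211 and 383 CPM, Blk at 29.2 and 246 CPM and Cd163l1 at 124 and 960.5 CPM. Cd28, a costimulator of αβ T cells, was at 159 and 20.6 CPM. Icos was at 1590 and 767 CPM and S100a6 at 2267 and 2331 CPM.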

How the data were processed

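Lung γδ T cells were profiled as 2 droplet libraries, 1 per group. The deposited matrices hold raw UMI counts for each gene in each called barcode. The authors aligned and counted reads with Cell Ranger on the mm10 genome. File headers give version 7.0.0 (7.0 in the submitters' processing notes), while the methods name an older release. The labels name a 3′ protocol and the methods a V(D)J kit. Whether introns or strand were used in counting is not given in the sources used here.

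Cells with over 200 and under 4000 genes and under 10% mitochondrial UMIs were kept. The KO-labelled library held 26436826 UMIs in 6688 barcodes, of which 6634 were kept with a median of 3521 UMIs, and the WT library 9173997 UMIs in 2520 barcodes, of which 2505 were kept with a median of 3288. UMIs were summed over a class and expressed as CPM. Log2 ratios have exact conditional 95% intervals, levels exact Poisson intervals and shares exact Clopper-Pearson intervals, all for counting error only. A class at 0 was set to a floor of 3 UMIs, and beside a share of 0 the limit is 3 counts of its total. For the background cells the end of the exact interval is given in its place. Genes were tested against the fold threshold, which here means compared with a ratio of 2, if 10% or more of the cells of either class had a UMI and both classes together held 30 or more. Doublets were not removed in the values reported, and leaving out the 5% of cells with the highest Scrublet scores was an alternative. Members were clustered by the Leiden method on 1000 variable genes, 20 components and 15 neighbours at resolution 0.5.

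The members and gene lists were chosen with earlier results of these data known. Named genes were the rule and label markers, receptor variable genes, genes of the lists, and in each comparison the 10 highest and 10 lowest ratios, leaving out receptor, sex-linked, mitochondrial and ribosomal genes, rule markers and genes with a Gm number or Rik name. Some genes that the rule named are not reported here. Genes pairing type 17 and type 1 transcripts were named outside it. Coordinates and exons came from GENCODE for GRCm38, which matched 32158 of 32285 gene identifiers. Python 3.11.15, numpy 2.4.6, scipy 1.17.1, pandas 2.3.3, scanpy 1.11.5, igraph 0.11.9, Biopython 1.88 and matplotlib 3.10.9 were used. On simulated sums with 200 changed genes, the direction was right for 100% in both comparisons, and intervals held the true ratio for 95.7% of 5703 genes and 96.4% of 5742 genes. The sums were drawn with Poisson counting error only, and the changes were set well past 2-fold, so these rates follow from the setting. They check the calculation and do not cover UMIs that are concentrated in a few cells.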

Additional observations from a re-analysis of the deposited data

Results flagged for a closer look

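Cells outside the classes compared also held the markers. Of 485 KO-labelled cells with UMIs of dv6 and of another δ gene, which the rule left out, 139 had 3 or more markers (28.7%, 24.7 to 32.9), against 30.6% of cells with dv6 alone. Of 2587 KO-labelled cells with no UMI of any of the δ genes, 741 had 3 or more markers (28.6%, 26.9 to 30.4), so many effector-marker cells of this library could not be given a δ gene. In the WT library, which was sorted as Vγ1-, 9 of 2505 cells passed the rule (0.359%, 0.164 to 0.681). No rate of stray dv6 UMIs or of doublets was measured for that library. Each of these was noted because it is a signal in cells that no comparison used.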

How the results depend on the processing

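No paired analysis was possible because 1 library stands for each group, and none was left out for the same reason. Of the values that answer a comparison, 139 stayed the same under an alternative, 60 moved and 1 reversed. A share or ratio counted as the same if it lay within the interval of its main value. Counts of cells, genes or clusters have no interval and counted as the same within a fixed fold of the main value. The direction of the named genes was kept in 240 of 240 values against dv6 cells below 3 markers and in 234 of 240 against non-dv6 effector-marker cells. These genes were named as the extremes of the same data, and the alternatives re-use many of the same cells, so a kept direction is no test. Against non-dv6 effector-marker cells, the named genes still past 2-fold ran from 0 of 20 with at least 2 markers to 13 of 20 with under 5% mitochondrial UMIs. They were 3 of 20 with the rule applied to thinned cells. Ratios are log2, "below" is the comparison with dv6 cells below 3 markers, "non-dv6" that with non-dv6 effector-marker cells, and counts are genes past 2-fold. The cause of each move was not tested, except that settings that keep fewer cells or more genes change counts by their construction.

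With at least 2 markers, ratios to below were 1.90 for Zbtb16, 3.66 for Cd40lg and 3.996 for Ccr8, with 107 genes lower, and to non-dv6 0.31 for Zbtb16, with 3 higher and 6 lower. With at least 4 markers, the ratios to below were 1.36 for Zbtb16 and 2.35 for Cd40lg. With at least 2 dv6 UMIs, 170 members were left, the share of Trav15d-1-dv6d-1 was 15.5%, 18 genes were higher and 23 lower than in non-dv6, and the ratios to non-dv6 were -0.074 for Cd40lg and 0.69 for Il17a.

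In cells thinned after they were chosen, the share of Trav15d-1-dv6d-1 was 24.6%, the ratio of Zbtb16 was 1.81 to below and 0.013 to non-dv6, and that of Cd40lg to non-dv6 was 0.66. With the rule applied to thinned cells, 170 members were left and the share of Trav15d-1-dv6d-1 was 26.3%. The ratio of Ccr8 was then 1.12 to below and -0.23 to non-dv6, that of Zbtb16 to non-dv6 -0.28 and that of Il17a 0.78, with 27 genes higher and 32 lower than in non-dv6. In cells with 2500 to 5000 UMIs, 183 members were left, with ratios to below of 1.76 for Zbtb16 and 4.58 for Ccr8 and 389 genes lower. Ratios to non-dv6 were then -0.018 for Zbtb16, -0.051 for Ccr8 and -0.28 for Il23r, with 22 genes higher and 50 lower.

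With a Tcrg-V1 UMI required, 202 members were left, the ratio of Zbtb16 to below was 1.29, and 21 genes were higher and 28 lower than in non-dv6. Without cells holding a Trbc1 or Trbc2 UMI, 98 members were left. Zbtb16 was read in 55.8% of them after thinning, and the share of Trav15d-1-dv6d-1 among those with 1 dv6 gene was 42.9%. Ratios to below were then 1.11 for Zbtb16 and 0.98 for Ccr8 with 419 genes lower, and to non-dv6 0.0072 for Zbtb16, 0.74 for Il17a and -0.37 for Cmc1, with 39 genes higher and 69 lower. Without cells holding an Atf3 or Hspa1a UMI, a setting chosen after seeing the data, 167 members were left, Cd40lg was 2.36 to below and -0.18 to non-dv6, Il17a reversed to -0.21, and 42 genes were higher and 42 lower than in non-dv6. With no filter on the share of cells and at least 10 UMIs, 788 genes were higher and 901 lower than below, and 222 higher and 371 lower than in non-dv6. Clustering at resolutions 0.3 and 1, also added after seeing the data, gave 2 and 7 clusters.

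Depth limits the rarer genes. Il4, with 7 UMIs, and the other type 2 cytokine genes were too low to compare, and a dv6 gene read as 1 UMI per cell is missed in many cells, so cells without a dv6 UMI cannot be said to lack the chain.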
